A study of Mus musculus with 11 samples.

Results

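Cap1 and 9 other genes of actin filament turnover were followed in sorted J-RGCs, a single type of retinal ganglion cell that responds to motion in a preferred direction, from Tbr1 knockout and control mice. The 10 genes were taken by symbol from the 24421 genes of the count files: the cyclase-associated proteins Cap1 and Cap2, the cofilin family Cfl1, Cfl2 and Dstn, the profilins Pfn1 and Pfn2, the cofilin partner Wdr1, and the cytoplasmic actins Actb and Actg1. Cap1 was chosen by its difference between the genotypes in these same libraries, so that difference is described, with no test, and supports nothing else. The other 9 genes were taken for what their proteins do. All 10 passed the filter on low counts. Ppt1, a lysosomal thioesterase gene that overlaps Cap1 on the opposite strand, was measured beside them as a check.

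Both genotypes were on a mixed background of C57BL/6 and CD1, were taken at postnatal day 4 to 5, and carried a transgene that marks J-RGCs with green fluorescent protein. Flow cytometry gave pools of 100 such cells, 11 in all, with 1 library from each. The 5 control (WT) libraries came from 4 animals, named here a to d, of which b gave libraries 2 and 3. The 6 Tbr1 KO libraries also came from 4 animals named a to d, of which a gave libraries 1 and 2, and b gave 3 and 4. The labels give neither the driver of the reporter nor the Tbr1 allele, and do not say whether Tbr1 was removed in the whole animal or in some cells. Counts of pools from the same animal were summed, so each comparison set 4 KO animals against 4 WT animals.

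Actin filaments grow by adding actin monomers at one end and lose them at the other, and growth cones of young axons depend on this cycle. Profilins bind monomers and deliver them to growing ends. Cofilins bind and sever aged filaments, and Wdr1, also called Aip1, speeds their work. Cyclase-associated proteins act with cofilin at the shrinking end and then exchange the nucleotide on the released monomer, which makes it fit for another round.

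Reads counted over genes ranged from 8609845 to 34718693 per library. Levels are given in CPM, counts relative to the library total, with totals adjusted by the TMM method. Tbr1 itself was at 155 to 193 CPM in WT animals and 94.2 to 145 CPM in KO animals, with at least 2203 counts in each KO library. The genotype labels cannot be checked by it, because the allele is not described. The J-RGC marker Jam2 was at 452 to 619 CPM in WT and 87.4 to 130.2 CPM in KO animals, without overlap. Its log2 fold change was -2.31 ± 0.17 (SE), with an adjusted p of 6.4e-05 in edgeR. The 11 pan-RGC markers summed to 15757 to 18172 CPM in WT and 16211 to 18158 CPM in KO animals, and each of the 11 was counted in both genotypes. None of the 11 passed the threshold, which 0.287% of all tested genes did. An unadjusted p under 0.05 in edgeR was seen for 6 of the 11, beside 7.09% of all tested genes. Pou4f2, a ganglion cell transcription factor gene, was at 282 ± 12.8 CPM in WT and 163 ± 37.7 CPM in KO animals (SD, n = 4 each), without overlap and with an adjusted p of 0.0681 in edgeR. Thy1 (418 ± 34.97 against 316 ± 42.5 CPM) also did not overlap, and Pou4f1 (1129 ± 168 against 858 ± 97.0 CPM) did (SD, n = 4 each). These 3 are the first by p, and all are lower in KO. Of the 11, 7 had log2 fold changes below 0, with a range of -0.79 to 0.44 and a median of -0.09. Among those that went up, Nefl was at 3910 to 5772 CPM in WT and 5552 to 6764 CPM in KO animals. Nefm was at 611 to 1117 CPM in WT and 904 to 1334 CPM in KO animals. All 9 photoreceptor markers were counted, and their sum was 18.4 to 207 CPM in WT and 25.9 to 780 CPM in KO animals, highest in KO animal c. The summed level of 5 tested Müller glia markers (72.1 to 129 against 151 to 211 CPM) did not overlap between WT and KO. Of the glial sum, Clu, which rose past the threshold, made up 54.1 to 65.6 CPM in WT and 92.3 to 117 CPM in KO animals. The other tested glia markers, Slc1a3, Glul, Rlbp1 and Sox9, each overlapped between genotypes. The 3 tested bipolar markers summed to 14.7 to 51.6 CPM in WT and 12.6 to 212 CPM in KO, and 6 tested markers of microglia, vessels and astrocytes to 17.1 to 81.6 and 10.2 to 41.9 CPM.

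Cap1 lies on GRCm38 chromosome 4, from 122859047 to 122886056 on the minus strand. Its promoter window of 300 bases is shown because this is the gene whose level differed. Windows run from 250 bases before to 50 after the RefSeq start, in GRCm38.p6, and are written 5′ to 3′ on the strand of the gene. Capitals mark motif letters where a window holds them. Below it stand stretches from the only member windows with a match to a searched motif, Dstn, which encodes the cofilin relative destrin, and Actg1.
Cap1 promoter, chr4:122886027-122886326, minus strand: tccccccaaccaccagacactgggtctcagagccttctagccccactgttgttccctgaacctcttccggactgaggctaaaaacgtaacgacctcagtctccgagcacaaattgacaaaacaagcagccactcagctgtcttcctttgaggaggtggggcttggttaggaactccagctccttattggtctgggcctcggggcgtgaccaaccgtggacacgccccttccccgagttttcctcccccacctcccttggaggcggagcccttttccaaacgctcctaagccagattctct
Dstn promoter stretch, chr2:143915183-143915228, plus strand: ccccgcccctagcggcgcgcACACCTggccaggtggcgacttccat
Actg1 promoter stretch, chr11:120348556-120348605, minus strand: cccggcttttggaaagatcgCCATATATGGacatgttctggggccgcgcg

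A window was found for 9 of the 10 members, Actb being the other one. The T-box proteins, to which Tbr1 belongs, bind sites with the letters AGGTGT, and these were searched on both strands, together with the longer AGGTGTGA that contains them. AGGTGT was in the window of Dstn, read there on the other strand as ACACCT at positions -128 to -123 from the start, and in no other member window, Cap1 included. Of all 32544 promoter windows of this length, 13.8% hold AGGTGT and 1.28% hold AGGTGTGA, which no member window held. The CArG box, the site of serum response factor (SRF), a regulator of many actin genes, was found in Actg1 as CCATATATGG at positions -90 to -81. It occurs in 1.64% of all windows. The GC content of the 9 member windows ran from 48.3% in Cap2 to 77.7% in Pfn2, with 57.0% in Cap1 and a median of 53.0% over all windows. These matches describe letters in a short window and say nothing of binding.

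Cap1 was at 253, 245, 261 and 268 CPM in WT animals a to d and at 55.6, 66.7, 54.4 and 81.6 CPM in KO animals a to d. Each KO animal lay below each WT animal, and the lowest WT animal was 3.0 times the highest KO animal. The mean was 257 ± 10.3 CPM in WT and 64.6 ± 12.6 CPM in KO (SD, n = 4 each), so that KO animals held 25.1% of the WT level. The log2 fold change, KO minus WT, was -1.99 ± 0.15 (SE), with a 95% interval of -2.31 to -1.67. The gene was selected on these values: it was past the threshold of the edgeR fit, as were 0.201% of the 13957 tested genes in that direction, and ranked 2nd by p. No overlap between genotypes was seen with KO lower in 2.48% and with KO higher in 2.58% of tested genes. Among the 2275 genes with at least 100 CPM in WT, 3 had a lower fold change. In pooled cells, fewer cells that express a gene and less RNA per cell cannot be told apart.

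**Figure D1:**
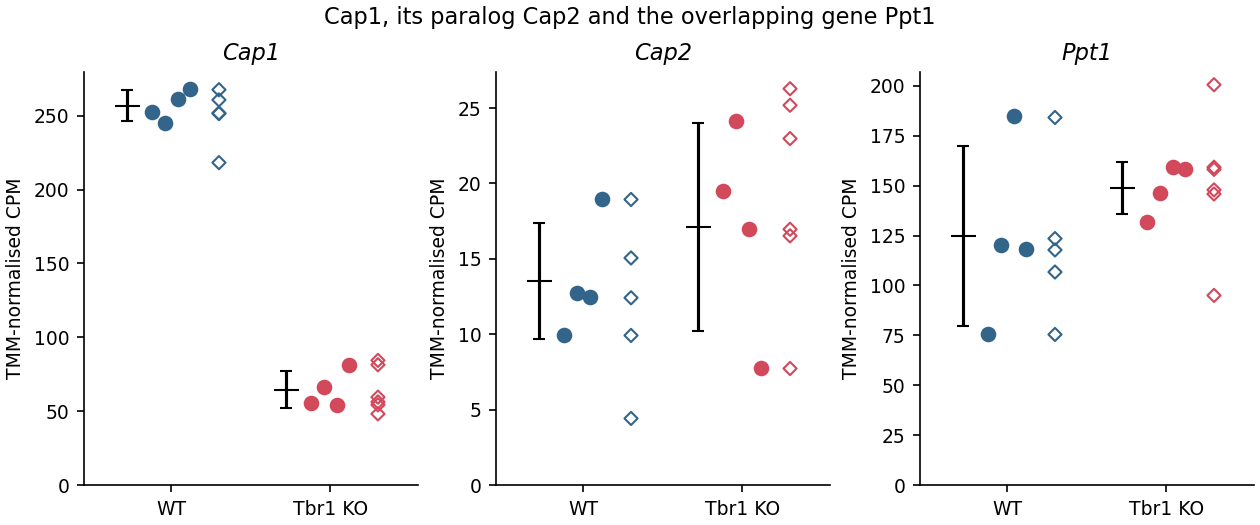
Levels of Cap1, Cap2 and Ppt1 in TMM-normalised CPM on axes from 0, with filled circles for the 4 animals of each genotype, open diamonds for single libraries, and bars for mean ± SD over animals. Cap1 separates the genotypes (245 to 268 against 54.4 to 81.6 CPM), while Cap2 and Ppt1 overlap.

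The pools showed the Cap1 difference one by one. The 5 WT libraries ranged from 218 to 268 CPM and the 6 KO libraries from 48.3 to 84.4 CPM. The 2 pools of WT animal b gave 251 and 218 CPM, those of KO animal a 59.6 and 48.3 CPM, and those of KO animal b 56.3 and 84.4 CPM. Pools of the same animal thus differed by up to 0.58 on the log2 scale, with a median of 0.30, where genes within 2-fold of the level of Cap1 had a median of 0.23. The coefficient of variation of Cap1 over WT animals was 4.00%, against a median of 14.1% for the 2275 genes with at least 100 CPM, and over KO animals it was 19.5%.

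Markers of other cells were set beside Cap1. In KO animals a to d the photoreceptor sum was 25.9, 176, 780 and 184 CPM. Cap1 was at 55.6, 66.7, 54.4 and 81.6 CPM in the same animals. In WT animals a to d the photoreceptor sum was 18.4, 43.3, 69.6 and 207 CPM, and Cap1 was at 253, 245, 261 and 268 CPM. The J-RGC marker Jam2 and the ganglion cell genes Pou4f2 and Thy1 separated the genotypes as Cap1 did, with lower values in KO animals. The Müller glia sum and, at a low level, the photoreceptor marker Gnat1 separated them with higher values in KO animals. Of the 5 tested glia markers, Clu alone did so by itself. The part of all these markers, photoreceptor markers included, in the Cap1 result was not tested.

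Ppt1 was at 75.7, 120, 185 and 118 CPM in WT animals a to d and at 132, 146, 159 and 158 CPM in KO animals a to d. The genotypes overlapped, with WT animal c above all KO animals. The log2 fold change was 0.26 ± 0.22 (SE) with a 95% interval of -0.21 to 0.72, and an adjusted p of 0.916 (edgeR, quasi-likelihood test, Benjamini-Hochberg over all tested genes). Cap1 and Ppt1 face each other tail to tail and share 129 bases (chromosome 4, 122859047 to 122859175), which are 3.69% of the 3494 exonic bases of Cap1. Smart-seq2 libraries do not mark strand, so reads from the shared bases cannot be assigned to either gene. The ratio of Cap1 to Ppt1 within an animal, which needs no scaling between libraries, was 1.42 to 3.34 in WT and 0.341 to 0.515 in KO animals. This ratio contains the values by which Cap1 was chosen and is no further check of its difference.

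Cap2, the paralog better known from heart and skeletal muscle, was low in these cells. It was at 9.96, 12.7, 12.5 and 19.0 CPM in WT animals a to d and at 19.5, 24.1, 17.0 and 7.74 CPM in KO animals a to d. KO animal d was the lowest of all 8 and KO animal b the highest, so the genotypes overlapped. Its log2 fold change of 0.34 ± 0.37 (SE) had a 95% interval of -0.46 to 1.13 and an adjusted p of 0.941 (edgeR quasi-likelihood test, Benjamini-Hochberg over all genes), so the interval reached past 2-fold upward. WT library 3, the shallowest, held 38 Cap2 counts, the fewest of any member in a library.

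Per exonic kilobase, the CAP pair summed to 76.8 ± 3.65 CPM in WT and 22.6 ± 2.87 CPM in KO animals (SD, n = 4 each). Cap1 made up 95.8% ± 1.02 of the pair in WT animals and 81.4% ± 7.53 in KO animals (SD, n = 4 each), ranging from 76.7% to 92.6% in the latter. Cap1 thus stayed the more abundant gene of the pair in each KO animal. The 3 cofilins together were 14.2 ± 1.47 times Cap1 per kilobase in WT and 57.6 ± 7.47 times in KO animals (SD, n = 4 each). The cofilin sum itself was 1041 ± 95.3 CPM per kilobase in WT and 1049 ± 129.9 in KO (SD, n = 4 each). The sum and share of the CAP pair and the ratio of cofilins to Cap1 contain the values by which Cap1 was chosen.

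None of the 9 other members passed the threshold (edgeR, adjusted p under 0.05 over all tested genes), which 0.287% of tested genes did in either direction, 0.201% with KO lower and 0.086% with KO higher. Their log2 fold changes ran from -0.16 (Actb) to 0.48 (Cfl2), 5 below and 4 above 0, with a median of -0.03, and -0.0007 was the median over all tested genes. Adjusted p was 0.563 to 0.997, 1 member had an unadjusted p under 0.05 (Cfl2), and neither DESeq2 nor limma voom called any of the 9. No other member was free of overlap between genotypes, which 5.06% of tested genes were in either direction. For 8 of the 9, all but Cap2, the 95% interval lay within 1 log2 unit of 0, so 2-fold changes lay outside it.

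**Figure D2:**
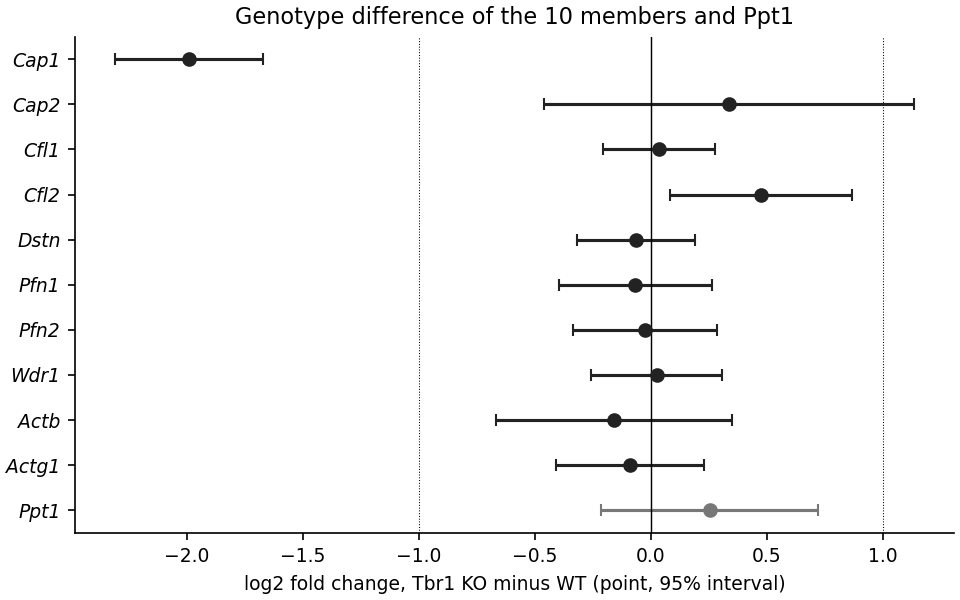
Log2 fold change, Tbr1 KO minus WT, of each member and of Ppt1 (points) with its 95% interval (bars), from the edgeR fit over 4 animals per genotype. Dotted lines mark 2-fold changes. Cap1 lies at -1.99 and the other points lie between -0.16 and 0.48.

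Cofilin 1, the main non-muscle cofilin, is encoded by Cfl1 on chromosome 19 (5490455 to 5495201). It was at 1227, 1480, 1476 and 1293 CPM in WT animals a to d and 1238, 1291, 1456 and 1635 CPM in KO animals a to d. The ranges overlapped, with KO animal d above all WT animals, and the log2 fold change was 0.04 ± 0.11 (SE). Dstn, which encodes destrin or ADF, the family member with the stronger depolymerising activity, was at 925, 997, 1091 and 912 CPM in WT and 938, 823, 850 and 1143 CPM in KO animals. KO animals held both the lowest and the highest value, and the log2 fold change was -0.06 ± 0.12 (SE). Adjusted p was 0.990 for Cfl1 and 0.977 for Dstn (edgeR, Benjamini-Hochberg).

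Cfl2, known as the muscle cofilin, had the largest positive value of the group. It was at 98.4, 144, 203 and 159 CPM in WT animals a to d and 222, 206, 199 and 215 CPM in KO animals a to d. WT animal c overlapped the KO animals, while the other WT animals lay below them. The spread was unequal, at 151 ± 43.1 CPM in WT and 210.4 ± 10.1 CPM in KO (SD, n = 4 each). The log2 fold change of 0.48 ± 0.18 (SE) had an unadjusted p of 0.0212 and an adjusted p of 0.563 (edgeR, Benjamini-Hochberg). Over all tested genes 7.09% had an unadjusted p under 0.05, and Cfl2 did not pass after adjustment.

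Wdr1, the partner that helps cofilin take filaments apart, was at 236, 211, 269 and 247 CPM in WT animals a to d and 292, 256, 219 and 213 CPM in KO animals a to d. WT values lay inside the KO range except in animal b, and the log2 fold change was 0.03 ± 0.13 (SE). The adjusted p was 0.996 (edgeR, Benjamini-Hochberg). Cap1 and Wdr1 had close CPM values in WT animals (257 ± 10.3 and 241 ± 24.0, SD, n = 4 each), and in KO animals Wdr1 was at 245 ± 36.6 CPM while Cap1 was at 64.6.

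The profilins feed monomers to growing ends, and Pfn2 is the form best known from neurons. Pfn1 was at 162, 175, 133 and 120 CPM in WT animals a to d and 145, 118, 162 and 139 CPM in KO animals a to d, a log2 fold change of -0.07 ± 0.15 (SE). Pfn2 was at 559, 756, 925 and 676 CPM in WT and 757, 774, 714 and 618 CPM in KO animals, a log2 fold change of -0.03 ± 0.14 (SE). Both genes overlapped between genotypes, and for Pfn2 the WT animals held the lowest and the highest value. Adjusted p was 0.983 for Pfn1 and 0.997 for Pfn2 (edgeR, Benjamini-Hochberg).

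Of the cytoplasmic actins, Actg1 (gamma-actin) was the most abundant member. It was at 3555, 4764, 5851 and 4203 CPM in WT animals a to d and 3875, 3816, 4468 and 5129 CPM in KO animals a to d, all KO values lying inside the WT range. Actb (beta-actin) was at 248, 357, 375 and 209 CPM in WT and 198, 202, 275 and 390 CPM in KO animals. Both genotypes spread widely for Actb, and its pools in WT animal b gave 400.5 and 198 CPM. The log2 fold changes were -0.09 ± 0.15 (SE) for Actg1 and -0.16 ± 0.23 (SE) for Actb. Adjusted p was 0.975 and 0.965 (edgeR, Benjamini-Hochberg).

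**Figure D3:**
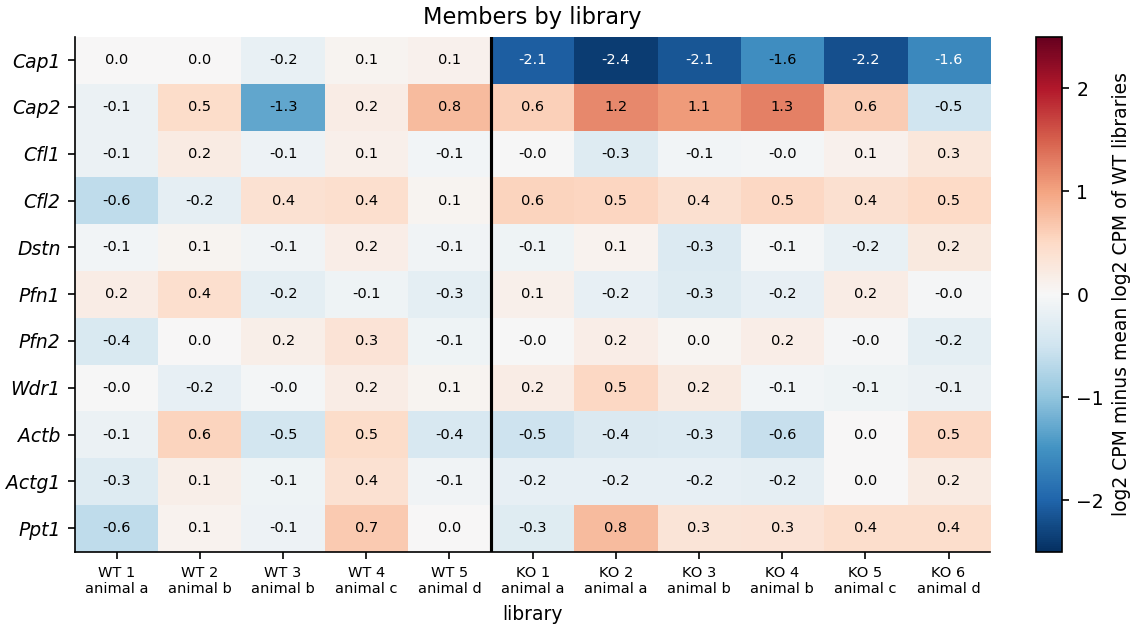
Each cell gives log2 CPM of 1 gene in 1 library minus its mean over the 5 WT libraries, with libraries in columns, WT left and Tbr1 KO right of the line, and colour from blue (lower) to red (higher). Cap1 is at -1.56 to -2.37 in all 6 KO libraries, and no other gene has KO libraries that all lie outside the range of the WT libraries.

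The balance within each family was compared as a ratio of counts inside an animal. Genes differ in length and in sequence shared with other genes, so these are not ratios of transcripts. Log2 Cfl1 to Dstn was 0.48 ± 0.07 in WT and 0.59 ± 0.16 in KO animals (SD, n = 4 each; exact two-sided permutation p = 0.314). Log2 Pfn1 to Pfn2 was -2.30 ± 0.44 in WT and -2.35 ± 0.27 in KO (SD, n = 4 each; exact permutation p = 0.914). Log2 Actb to Actg1 was -3.97 ± 0.26 in WT and -4.07 ± 0.26 in KO (SD, n = 4 each; exact permutation p = 0.657). Benjamini-Hochberg adjustment over these 3 exact tests gave 0.914 for each, and 0.0286 is the smallest p that 4 against 4 animals allow. The differences of 0.11, -0.05 and -0.10 on the log2 scale were each smaller than the SD over KO animals. That of Cfl1 to Dstn was larger than its WT SD of 0.07, with overlapping ranges (0.41 to 0.57 in WT, 0.40 to 0.78 in KO).

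Levels of different genes were compared per exonic kilobase. In WT animals Actg1 led with 1728 ± 366 CPM per kilobase, followed by Dstn at 513 ± 43.1, Cfl1 at 481 ± 45.4, Pfn2 at 206 ± 43.5 and Actb at 111 ± 30.4 (SD, n = 4 each). Cap1 was 6th of the 10 at 73.5 ± 2.94, then came Pfn1 at 61.3 ± 10.6, Cfl2 at 46.3 ± 13.2, Wdr1 at 27.1 ± 2.70 and Cap2 at 3.26 ± 0.92 (SD, n = 4 each). Dstn and Cfl1 overlapped in range, as did Cap1 and Pfn1, Pfn1 and Cfl2, and Cfl2 and Wdr1, and neighbours outside these pairs did not. In KO animals Cap1, at 18.5 ± 3.61 CPM per kilobase (SD, n = 4), was 9th, between Wdr1 and Cap2. By the length of the longest coding transcript instead of all exons, Cfl1 came before Dstn, Pfn1 rose to 5th, Cap1 was 7th and Wdr1 came before Cfl2.

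**Figure D4:**
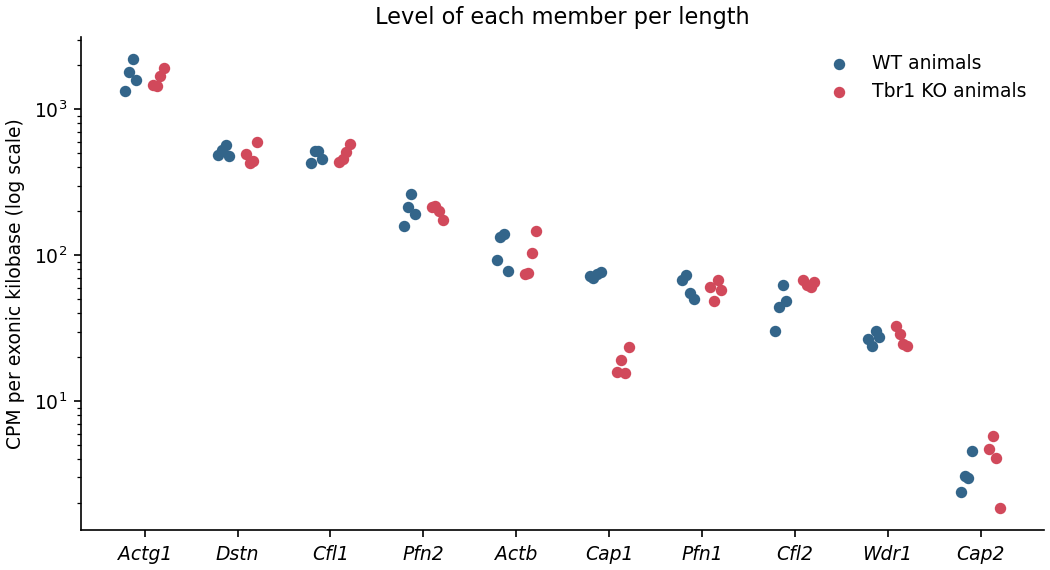
CPM per exonic kilobase on a log scale for each member, ordered by its WT mean, with 1 point per WT animal (blue) and Tbr1 KO animal (red). The colours overlap in each gene but Cap1, which lies near 73.5 in WT and 18.5 in KO animals.

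Some of these levels depend on how reads from near-identical sequence were counted. In each library 13.2% to 14.6% of the listed counts were for alignments with no unique position, which were assigned to no gene. Of the 50-base windows along the longest coding transcript, 56.7% in Actg1 occur also in transcripts of other genes, mostly Gm12715 (51.1%), and 14.2% do in Actb. For Cfl1 the share was 23.0%, and 16.2% of all Cfl1 windows occur in Snx32. Snx32 is a sorting nexin gene on the opposite strand that overlaps Cfl1 over 2967 bases. Snx32 was at 106 ± 17.1 CPM in WT and 99.1 ± 12.1 CPM in KO animals (SD, n = 4 each). For Cap1 the share was 2.98%, nearly all of it Ppt1 (2.94%), and for Cap2 and Cfl2 1.97% and 1.18%. It was 0 for Dstn, Pfn1, Pfn2 and Wdr1. The levels of Actg1, Actb and Cfl1 are therefore uncertain, and copies absent from the annotation were not searched.

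The wider actin machinery was described from 9 lists with 95 genes, of which 93 were in the files and 85 were tested. In the edgeR test with adjustment over all genes, 0 were lower and 0 higher, beside 0.201% and 0.086% of all tested genes. At such shares, 0 calls here and in the single lists below do not set these genes apart. The lowest adjusted p was 0.259. An unadjusted p under 0.05 was seen for 8 (9.41%, beside 7.09% of all tested genes), limma voom called 0 and DESeq2 called 1 (Gmfb, adjusted p = 0.0205). The median log2 fold change was 0.01, with 40 of 85 below 0, beside -0.0007 over all tested genes. Genotypes did not overlap for 5 of the 85 (5.88%, beside 5.06% of all tested genes), namely Cotl1, Coro2b and Tpm4 with higher values and Lrrc16a and Mkl2 with lower values in KO animals.

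The kinases and phosphatases that switch cofilin off and on gave 0 calls among 13, with a median log2 fold change of -0.09. Limk1, which phosphorylates and inactivates cofilin, was at 94.5 ± 10.2 CPM in WT and 133 ± 28.8 CPM in KO animals (SD, n = 4 each), a log2 fold change of 0.49 ± 0.17 (SE). The phosphatase Ssh1, which reactivates cofilin, gave 0.81 ± 0.48 (SE) and the kinase Tesk2 -1.47 ± 1.35 (SE), both at low levels. None of these 3 values passed, with adjusted p of 0.493 to 0.935 (edgeR, Benjamini-Hochberg).

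The 12 tested coronins, severing and other disassembly proteins gave 0 calls and a median log2 fold change of 0.03. Gmfb, a relative of cofilin that acts on branched filaments, was at 25.9 ± 7.14 CPM in WT and 56.4 ± 19.5 CPM in KO animals (SD, n = 4 each), a log2 fold change of 1.12 ± 0.29 (SE). Its adjusted p was 0.259 (edgeR, Benjamini-Hochberg), and below 0.05 in DESeq2 and in both edgeR fits that took libraries as replicates. The coactosin gene Cotl1 gave 0.88 ± 0.24 and the coronin Coro2b 0.31 ± 0.11 (SE). Of the 4 monomer binding proteins, which hold actin monomers in reserve, the thymosin Tmsb10 was at 1902 ± 433 CPM in WT and 2194 ± 49.1 CPM in KO (SD, n = 4 each). Tmsb4x gave a log2 fold change of 0.14 ± 0.14 and the twinfilin Twf2 one of -0.17 ± 0.28 (SE), and none of the 4 passed.

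The 22 genes of the Arp2/3 complex and its activators, which start filament branches, had a median log2 fold change of 0.01 and 0 calls, from -0.24 to 0.38. Their first 3 by p were the WAVE complex genes Abi1 (0.29 ± 0.18), Brk1 (0.26 ± 0.20) and Cyfip2 (0.17 ± 0.13, SE). Formins and Ena/VASP proteins, which lengthen filaments, gave 0 calls among 13, with Fmn1 at 0.44 ± 0.20, Fhod1 at 1.81 ± 0.88 and Fhod3 at -0.64 ± 0.32 (log2 fold change ± SE). Among 11 capping proteins there were 0 calls, with Lrrc16a, which encodes the capping protein regulator CARMIL, at 96.4 ± 11.2 CPM in WT and 67.7 ± 8.45 CPM in KO (SD, n = 4 each). Capza1 gave a log2 fold change of 0.13 ± 0.15 and Add1 one of -0.12 ± 0.17 (SE). The 4 tropomyosins, which coat filaments, gave 0 calls and positive values in each, with Tpm4 at 0.37 ± 0.14, Tpm2 at 2.56 ± 1.81 from a level near 0, and Tpm1 at 0.09 ± 0.10 (SE).

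SRF and its actin-sensing cofactors, which switch on actin genes when free monomers run low, gave 0 calls among 3 and negative log2 fold changes in each. Mkl2 was at 87.1 ± 22.5 CPM in WT and 58.1 ± 6.27 CPM in KO animals (SD, n = 4 each), a log2 fold change of -0.58 ± 0.19 (SE). Srf gave -0.81 ± 0.54 from 7.0 CPM in WT, and Mkl1 gave -0.09 ± 0.28 (SE). Their adjusted p was 0.465 to 0.990 (edgeR, Benjamini-Hochberg). Of the other actins and profilins, Acta1, Pfn4 and Pfn3 passed the filter, at 0.00 ± 0.35, -0.97 ± 0.52 and 1.16 ± 1.78 (log2 fold change ± SE), and none passed the threshold.

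Genes around Cap1 were looked at next. Within 500 kb of its start, 29 genes are annotated, 14 were matched in the files and 10 were tested. In the edgeR test, 0 of the 10 passed, beside 0.287% of all tested genes. The lowest adjusted p was 0.436, and 4 had log2 fold changes below 0 and 6 above. Of the 10, 1 (Mycl) did not overlap between genotypes, beside 5.06% of all tested genes. The nearest tested genes were Ppt1, described above, then Mfsd2a, a lipid transporter gene at 2.39 CPM in WT, with 0.16 ± 1.98 (SE). Mycl, a MYC family gene whose start lies 109.6 kb from that of Cap1, was at 14.0 ± 0.90 CPM in WT and 24.6 ± 6.02 CPM in KO animals (SD, n = 4 each), a log2 fold change of 0.81 ± 0.26 (SE). Trit1, a tRNA-modifying enzyme gene, gave -0.32 ± 0.56 (SE).

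**Figure D5:**
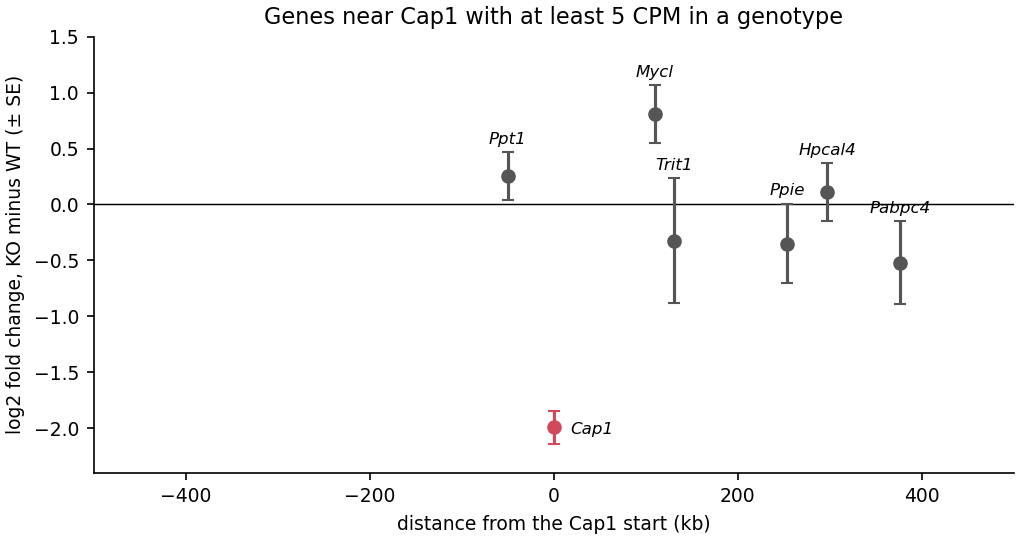
Log2 fold change, Tbr1 KO minus WT, with SE bars, against the distance of each gene's start from the start of Cap1 in kb, for Cap1 (red) and the 6 tested neighbours (grey) with at least 5 CPM in a genotype. Cap1 lies at -1.99, and the neighbours lie between -0.52 (Pabpc4) and 0.81 (Mycl).

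Over the 8 animals, the genes whose log2 CPM was most like that of Cap1, among 7994 others with a mean of at least 16 CPM, were Sorcs3 (Pearson r = 0.978), Pmp22 (0.977), Pcdh19 (0.968), 4931406H21Rik (0.965) and Stxbp4 (0.963). The 8 animals form separate clusters by genotype for Cap1, so these values are a description of animals of both genotypes. Sorcs3, a sorting receptor gene, was at 142 ± 12.2 CPM in WT and 17.2 ± 6.19 CPM in KO animals (SD, n = 4 each). Pmp22, a myelin membrane protein gene, was at 50.3 ± 10.9 and 9.22 ± 2.16 CPM, and the protocadherin Pcdh19 at 70.2 ± 6.01 and 19.4 ± 4.28 CPM (SD, n = 4 each). Stxbp4, which encodes a syntaxin-binding protein, was at 24.7 ± 2.29 CPM in WT and 12.5 ± 3.05 CPM in KO animals (SD, n = 4 each), with an adjusted p of 0.285 (edgeR, Benjamini-Hochberg). Cap1 was chosen for its genotype difference, so members that do not differ by genotype would not rank high here. Their absence from these 5 genes therefore shows nothing further. Cap2 lay under the minimum of 16 CPM and was not compared.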

How the data were processed

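RNA of sorted pools of J-RGCs was made into libraries with Smart-seq2 and Nextera XT and read from a single end, per the labels' protocols. The values deposited by the authors are raw counts of reads for each gene symbol. Tools named per the submitters' processing notes are HTSeq 0.6.1, TopHat2 2.0.10 and Trimmomatic 0.32, and the build is mm10. Annotation and strand setting: not given in the sources used here. No molecular identifiers are described, so PCR copies stay in the counts.

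Counts were summed per animal, filtered with filterByExpr (13957 genes), scaled with TMM and tested in edgeR 4.0.16 (R 4.3.3) by its quasi-likelihood test with robust dispersions, with Benjamini-Hochberg adjustment over all tested genes and a threshold of 0.05. The SE is the log2 fold change divided by the square root of F. Log2 CPM used an offset of 0.5. Lines that name no gene were left out. Of the counts listed, no feature held 20.0% to 24.8%, not unique 13.2% to 14.6% and ambiguous 1.31% to 1.47%. Whether a read with several positions was counted more than once is not given. Tested on simulated counts for 13637 genes in 4 against 4 animals, the fit recovered 57% of the 100 genes set to 2-fold and 86% of the 100 set to 4-fold, and made 8 false calls. Changed genes were drawn only above a minimum level, and genes of similar level were given the same spread. Real genes differ in spread, so these shares need not hold for these data. Same-numbered libraries come from different animals, and their deviations correlated by -0.03 to 0.14. DESeq2 1.42.0 and limma 3.58.1 served as alternatives, beside other scalings and filters, libraries as replicates and each animal left out. Positions and exon lengths are from GENCODE M21 (GRCm38), promoters from RefSeq (GRCm38.p6). Named genes are the members, Ppt1, up to 3 genes per list by p, the 4 nearest tested neighbours and the 5 genes most like Cap1. The result of 1 further marker list is not reported here, so the lists given are not all that were measured. Genes without overlap between genotypes were named after their values were seen. The members and lists were chosen with earlier results of these data known.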

Additional observations from a re-analysis of the deposited data

How the results depend on the processing

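The log2 fold change of Cap1 ran from -2.12 to -1.91 over the 19 alternatives, which describes the values it was selected on and is no separate evidence. None of the 9 other members was called in any of the 19. Leaving out each animal gave -2.12 to -1.91 for Cap1. With libraries as replicates and a replicate block, Cap1 was at -2.07, Cfl1 at -0.066 and Pfn2 at 0.067; the block changed no member's call. Same-numbered libraries correlated in their deviations by -0.03 to 0.14. Libraries with different numbers were not compared, so these values cannot decide whether the numbers pair them. Without the block Cfl1 was at -0.0023 and Pfn2 at 0.0028, and limma voom gave Pfn2 0.0046. When each animal was left out in turn, signs turned for Cfl1 (-0.043 to 0.093), Pfn1 (-0.15 to 0.027), Pfn2 (-0.13 to 0.11), Wdr1 (-0.070 to 0.087), Actg1 (-0.19 to 0.051) and log2 Pfn1 to Pfn2 (-0.22 to 0.12), all near 0 and uncalled. Over all genes, 40 calls became 84 with libraries as replicates, 43 with the block, 74 with limma voom, 156 with DESeq2 and 17 to 44 with an animal left out (18 without WT animal b, 22, 17 and 25 without KO animals a, b and d). The cause was not tested. Actin partner genes went from 0 calls to 1 (Gmfb) with libraries as replicates (adjusted p = 0.0343 in edgeR), with the block (0.0488) and with DESeq2, and leaving out each animal gave 0. Leaving out WT library 3, an alternative chosen after the depths were seen, gave -1.997 for Cap1 and 34 calls over all genes. Ppt1 ranged from 0.085 without WT animal a to 0.51 without WT animal c. Low counts limit Cap2, which had 38 to 796 reads per library: its 0.34 became 0.12 without KO animal b, 0.58 without KO animal d, 0.66 with libraries as replicates and 0.93 with the block. Actb ran from -0.40 to -0.027 with an animal left out. With 1 animal left out the smallest exact p is 0.0571.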
